A study of Caenorhabditis elegans with 2 samples.

Results

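The 8 genes described here, hsp-6, hsp-60, atfs-1, dve-1, ubl-5, clpp-1, lonp-1 and spg-7, act in the mitochondrial stress response of Caenorhabditis elegans. They were chosen by name, with earlier results of these data known, as 8 of the 19973 protein-coding genes in the nuclear genome. For each, every peak summit from 5000 bp upstream of the gene's start to its end was collected. The series maps the binding of HLH-30, the worm member of the TFEB family of basic helix-loop-helix leucine zipper factors. Whole hermaphrodites at the late embryonic stage, of strain OP433 (unc-119(tm4063) III; wgIs433), carried an inserted transgene for HLH-30 with GFP and FLAG at its C terminus, and chromatin was precipitated through the GFP. There were 2 biological replicates of this single strain and stage, and no second condition, so what follows is a description of where peaks lie, with no test. Whole animals were used, so the cell type in which a site was bound cannot be told, and few bound cells cannot be told apart from weak binding in many.

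The mitochondrial unfolded protein response is a signal from stressed mitochondria to the nucleus. ATFS-1 is a transcription factor that healthy mitochondria import and the matrix protease LONP-1 degrades. When import falters it enters the nucleus and raises the expression of chaperone genes, and the homeodomain protein DVE-1 with its ubiquitin-like partner UBL-5 acts there as well. The best known target genes are hsp-6, for the mitochondrial Hsp70 of the matrix, and hsp-60, for the matrix chaperonin. CLPP-1 is the proteolytic subunit of the matrix Clp protease, and SPG-7 is a subunit of the inner membrane protease of the AFG3 type.

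Peaks of HLH-30 that passed the authors' reproducibility threshold lay in the windows of both chaperone genes and in none of the other 6. The sequences below show the summits of these peaks and that of clpp-1, the member whose strongest peak came nearest to the threshold from below. Each is 201 bases of WBcel235 (ce11), 100 to either side of the summit, on the strand of the member gene, at chrV:4827083-4827283 on the minus strand, chrIII:1619030-1619230 on the plus strand and chrII:10301001-10301201 on the minus strand. Capitals mark 7 words or their reverse complements. The E-box forms are CACGTG, its variant CATGTG and the longer form TCACGTGA, which contains the first. The other words, more frequent at optimal summits than in their flanks, are the dinucleotide repeats GAGAGA as well as CACACA, the word ACGCAG and lastly the word CGTCTC.
hsp-6: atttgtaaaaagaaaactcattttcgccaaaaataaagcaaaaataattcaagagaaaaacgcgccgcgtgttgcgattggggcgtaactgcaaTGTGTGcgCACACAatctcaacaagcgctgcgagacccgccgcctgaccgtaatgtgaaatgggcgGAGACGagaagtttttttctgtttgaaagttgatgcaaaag
hsp-60: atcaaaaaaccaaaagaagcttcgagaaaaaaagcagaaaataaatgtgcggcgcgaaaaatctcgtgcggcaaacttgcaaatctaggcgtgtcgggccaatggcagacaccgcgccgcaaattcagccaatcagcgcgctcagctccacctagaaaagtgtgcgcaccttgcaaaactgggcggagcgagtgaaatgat
clpp-1: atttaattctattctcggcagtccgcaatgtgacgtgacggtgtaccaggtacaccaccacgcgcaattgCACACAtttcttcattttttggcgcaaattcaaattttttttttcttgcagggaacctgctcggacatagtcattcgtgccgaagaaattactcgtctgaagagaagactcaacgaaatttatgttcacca

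Neither chaperone peak held an E-box. In the hsp-6 window CACACA occurred on each strand, from base -6 to -1 and from base 2 to 7 relative to the summit, so that the summit fell inside an inverted repeat of 14 bases. CGTCTC occurred further out, at bases 60 to 65. The hsp-60 window held none of the 7 words, on either strand, over its 201 bases. The clpp-1 window held CACACA, at bases -30 to -25. Among all 1959 optimal peaks, 37.3% had CACGTG or CATGTG no more than 50 bp from the summit, against 5.46% of windows centred 500 bp to either side. CACACA did so in 17.9%, against 4.42%, and at least 1 of the 7 words in 76.8%, against 18.8%. The words other than E-boxes are listed as more frequent at these same summits, so their excess over the flanks is not separate evidence. The hsp-6 and hsp-60 windows had a GC content of 43.8% and 49.8%, near the median of 45.8% over optimal peaks, where the flanks had 35.3%. The longest run that the 2 windows shared, on either strand, was 10 bases.

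Of the 2 chaperone genes, hsp-6 (WBGene00002010; V, 4824124 to 4826760, minus strand) had the stronger peak. It spanned V, 4827095 to 4827247, and its summit was intergenic, 423 bp upstream of the only annotated start of hsp-6. Its signal, the authors' own peak value made against a control, was 158 in the optimal and pooled lists, 63.6 in replicate 1 and 88.5 in replicate 2. The summits of replicates 1 and 2 lay 10 bp and 2 bp from the pooled one. It ranked 262 of 1959 optimal peaks, 218 of 11695 in replicate 1 and 327 of 30000 in replicate 2. Signals are scaled separately in each list, so ranks and not signals compare the replicates. The peak was thus in the top 13.4% of the optimal list, the top 1.86% of replicate 1 and the top 1.09% of replicate 2.

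The peak beside hsp-60 (WBGene00002025; III, 1619742 to 1625803, plus strand) spanned III, 1619069 to 1619189, with an intergenic summit 612 bp upstream of the gene's 5' end. Its signal was 126 in the optimal and pooled lists, 34.999 in replicate 1 and 91.4 in replicate 2. It ranked 370 in the optimal list, 637 in replicate 1 and 307 in replicate 2, with replicate summits 17 bp and 4 bp from the pooled one. The order of the chaperone genes differed between replicates. In replicate 1 hsp-6 had the higher rank, and in replicate 2 hsp-60 did. Both peaks were narrow, at 153 bp and 121 bp, whereas 83.4% of optimal peaks were 344 bp wide. Narrow peaks made up 298 of the 489 strongest optimal peaks, 60.9%. Both windows also held weaker pooled summits that did not reach the optimal list. Those of hsp-6 had signals of 23.6 and 22.0 inside the gene and 15.3 upstream of it. Those of hsp-60 had signals of 14.1 inside the gene and 13.8 upstream of it.

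Each chaperone gene shared its peak with a divergent neighbour whose start was closer. The hsp-6 peak lay in the gap of 599 bp between hsp-6 and C37H5.5, a gene that RefSeq names as a nucleolar complex protein 3 homolog, and its summit was 177 bp from the start of C37H5.5. The hsp-60 peak lay in the gap of 812 bp between hsp-60 and Y22D7AL.10, and its summit was 201 bp from the start of Y22D7AL.10. RefSeq names the product of Y22D7AL.10 as the mitochondrial 10 kDa heat shock protein, the co-chaperonin that caps the Hsp60 ring. The peak therefore lies between the genes of a chaperonin and its co-chaperonin, and binding data cannot assign it to either. Among all optimal peaks at a gene start, 290 of 1069, 27.1%, lay at the starts of several genes.

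**Figure D1:**
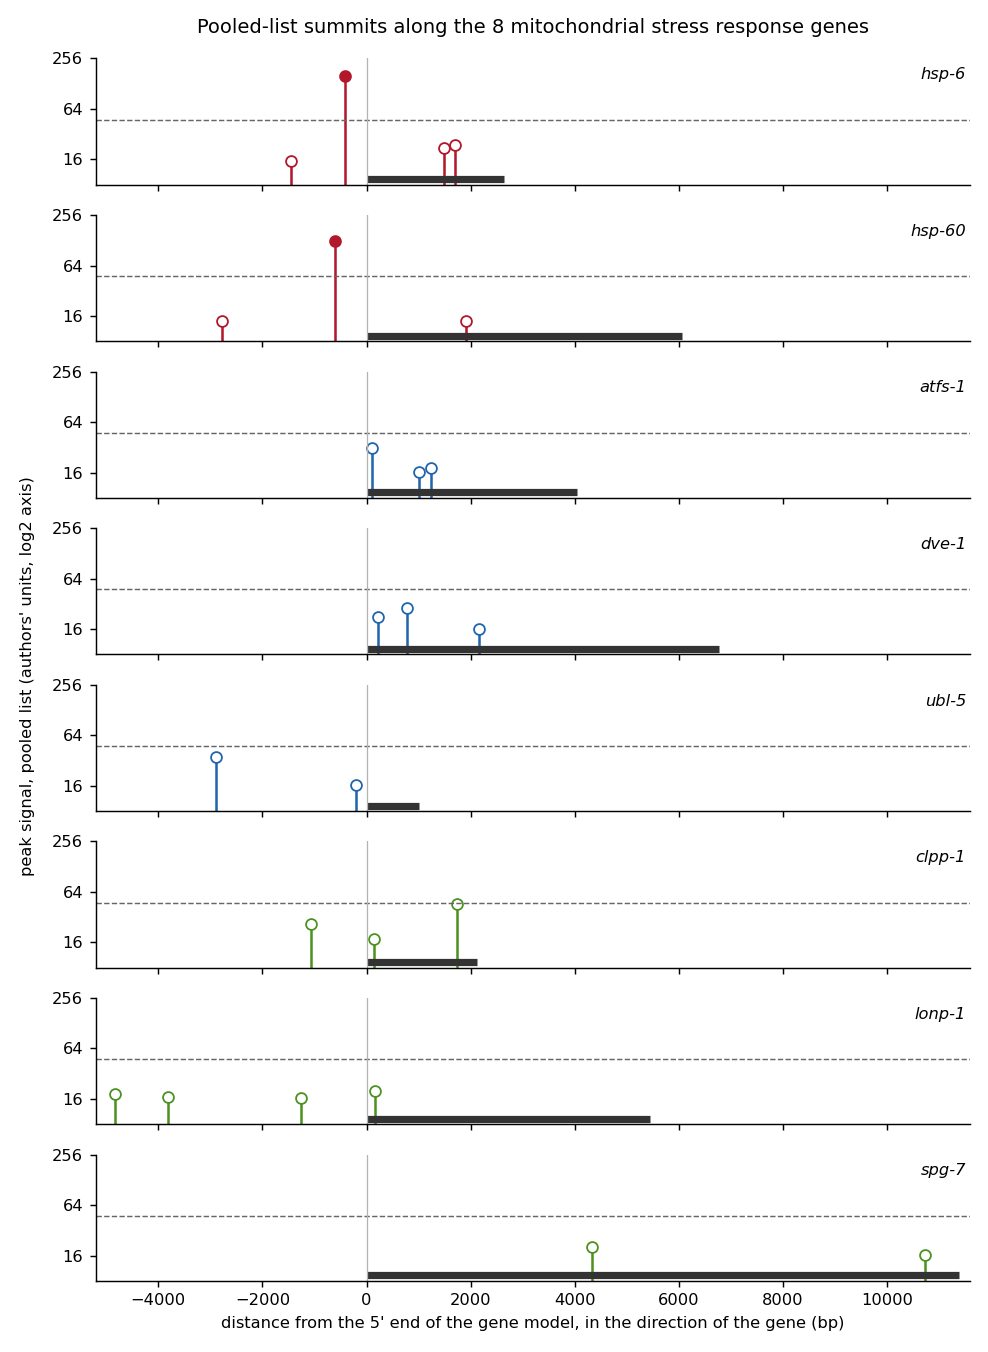
Peak signal in the pooled list (log2 axis, authors' units) against distance from the 5' end of each gene (bp), for the 24 pooled summits of the 8 windows. Filled points are in the optimal list, open points are not, the dashed line is the lowest optimal signal of 47.7 and dark bars are the gene bodies. The filled points are 1 summit each for hsp-6 and hsp-60, both upstream of the gene, and clpp-1 has an open point just below the line.

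A gene was counted as having a peak at a start when any annotated start of it had a summit in the 1000 bp before it or the 200 bp after it. In the optimal list this held for 2 of the 8 members, against 6.65% of all protein-coding genes. Over the whole window, from 5000 bp upstream to the gene end, the count was again 2 of 8, against 15% of all genes. The members are few and were chosen with earlier results of these data known, so no difference from all genes is claimed. The members ran from 1016 bp for ubl-5 to 11386 bp for spg-7, against a median of 2027 bp over all genes, and a longer gene has a longer whole window. When a peak counted only for the gene with the nearest start, no member had one, since C37H5.5 and Y22D7AL.10 took both. Over all genes with an optimal peak at a start, 1019 of 1328, 76.7%, kept theirs by that rule. Within 500 bp upstream to 100 bp downstream of a start, hsp-6 alone had a peak.

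The pooled and replicate lists are labelled as peaks and background, the input from which the reproducible peaks were taken. A summit found only in them may therefore be background and not binding. In the longer pooled list, which also holds peaks below the threshold, 7 of 8 members had a peak at a start, against 33.1% of all genes. A gene with more annotated starts has more windows at starts, and dve-1 has 9 starts. The pooled summits of dve-1 all lay more than 200 bp inside its 5' end, so it counted only through internal starts. All 8 members had a summit in the whole window, against 71.4% of all genes. The windows covered 79.5 kb and held 24 pooled summits, 3.02 per 10 kb, against 1.88 per 10 kb of the genome. They held 14 summits of replicate 1, 1.76 against 1.17 per 10 kb, and 38 of replicate 2, 4.78 against 2.99 per 10 kb. The genome values count all bases, whereas these windows lie at genes and include starts of neighbours. The densities therefore do not compare like with like. Of the 22 pooled summits below the threshold, 11 had a replicate 1 summit within 100 bp, 16 a replicate 2 summit, 7 both and 2 neither. The share with a replicate 1 summit was 50%, against 36.1% of all 16873 pooled peaks below the threshold, and with a replicate 2 summit, whose list is the longer, 72.7% against 75.3%. The share with both was 31.8%, against 22.8% of those peaks and 95.4% of optimal peaks.

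Among the regulators, atfs-1 (WBGene00013878; V, 14193663 to 14197700, plus strand) had its strongest pooled summit in the 5' UTR, 96 bp inside the gene. Its pooled signal was 31.0, 65.1% of the lowest optimal signal, and its rank was 3986 of 18832. The replicates placed this peak differently. Replicate 1 had a summit 144 bp inside the gene, with signal 11.7 and rank 5702. Replicate 2 had its strongest summit 28 bp upstream of the gene, with signal 26.0 and rank 2774, and a weak one 186 bp inside, with rank 27953. The strongest replicate 1 summit of the window lay in a coding exon 1021 bp inside atfs-1, with rank 2672, and replicate 2 had none within 100 bp of its pooled counterpart. The nearest optimal peak to any atfs-1 start was 16663 bp away.

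The dve-1 gene (WBGene00022861; X, 427035 to 433812, minus strand), with 9 annotated starts, had 3 pooled summits, all inside the gene model. The strongest had signal 28.9 and rank 4487, in the 5' UTR, 257 bp upstream of the nearest internal start. Replicate 2 had a summit at the same base, with rank 3973, and replicate 1 had none within 100 bp. This summit was 1 of 2 below the threshold with an E-box within 50 bp, the word CATGTG at bases -34 to -29. The next, in an intron, had signal 22.4 and was matched in replicate 2 at rank 4972 and not in replicate 1. The single replicate 1 summit of the window, 336 bp inside the gene, had rank 8931. Its peak overlapped that of the intron summit, which lay 221 bp inside, but the summits were more than 100 bp apart. All 3 pooled dve-1 summits had a replicate 2 summit within 100 bp, and none had one in replicate 1.

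Upstream of ubl-5 (WBGene00006726; I, 5607826 to 5608841, minus strand) the pooled list held a weak summit 205 bp from the start, with signal 16.3 and rank 12088. Replicate 2 had it at rank 21621 and replicate 1 had no counterpart. A stronger one, of signal 35.1 and rank 3236, lay 2885 bp upstream in an intron of trpp-8, and the nearest start was that of vha-10, 1456 bp away. It was in both replicates, at rank 3274 in replicate 1 and 5153 in replicate 2, and held CATGTG at bases 21 to 26.

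Of the protease genes, clpp-1 (WBGene00014172; II, 10300714 to 10302842, minus strand) came closest to the optimal list. Its strongest pooled peak, at II, 10300929 to 10301272, had signal 45.7, 95.8% of the lowest optimal signal, and ranked 2083, 124 places below the end of the list. The last peak inside the list had a signal of 47.658 and the first outside had 47.621. The clpp-1 summit lay in an intron, 1741 bp inside the gene and 21 bp upstream of the start of its shortest annotated transcript. It was also 115 bp upstream of mdt-22, a Mediator subunit gene that lies inside clpp-1 on the other strand. Both replicates had it, within 24 bp in replicate 1 at rank 1603 and within 1 bp in replicate 2 at rank 3170. At equal list lengths of 1959 peaks it was therefore kept in replicate 1 and not in replicate 2. A summit near the gene's own 5' end, 150 bp inside it, had pooled rank 10438, replicate 2 rank 3014 and no replicate 1 counterpart.

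The lonp-1 gene (WBGene00016391; I, 10676922 to 10682374, minus strand) had 4 pooled summits of low signal, between 16.3 and 19.7, and none was found in both replicates. The one at its own start, 171 bp inside the gene in a coding exon, had pooled rank 8671 and replicate 2 rank 22772. The spg-7 gene (WBGene00004978; I, 3467132 to 3478517, plus strand) had no pooled or replicate 1 summit at its start. Its 2 pooled summits lay in coding exons 4323 and 10727 bp inside the gene, at ranks 8226 and 11996. Both replicates had the first, at rank 9625 in replicate 1 and 8959 in replicate 2, and replicate 1 alone had the second within 100 bp. At the start, replicate 2 alone had a summit, 295 bp upstream, with rank 28245 of 30000. The nearest optimal peaks to the starts of clpp-1, lonp-1 and spg-7 were 52503, 51440 and 61249 bp away.

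The members also differed when each gene was placed among all genes by its strongest pooled peak at a start. Only 1.02% of genes had a peak as strong as that of hsp-6, and 1.43% as strong as that of hsp-60. The share was 6.99% for clpp-1, 11.3% for atfs-1, 12.5% for dve-1, 19.6% for lonp-1 and 24.7% for ubl-5, and spg-7 had no such peak. Any annotated start counts here, so genes with more starts have more windows from which the strongest peak is taken. The clpp-1 share rests on the summit 1741 bp inside the gene, of signal 45.7, whereas that 150 bp inside had 17.7. The dve-1 share rests on a summit 771 bp inside the gene. In replicate 1 the shares were 0.871% for hsp-6, 2.45% for hsp-60, 5.88% for clpp-1, 14.7% for atfs-1 and 19.9% for dve-1, and the other 3 had no peak at a start. In replicate 2 they were 1.26% for hsp-6, 1.2016% for hsp-60, 8.01% for atfs-1, 8.47% for clpp-1 and 10.519% for dve-1. For ubl-5, lonp-1 and spg-7 the replicate 2 shares were 35.027%, 36.3% and 41.6%. The chaperone genes came first in each list, and their order and that of clpp-1 and atfs-1 changed between the replicates. The clpp-1 shares belong to different summits, 1765 bp inside the gene in replicate 1 and 150 bp inside in replicate 2.

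**Figure D2:**
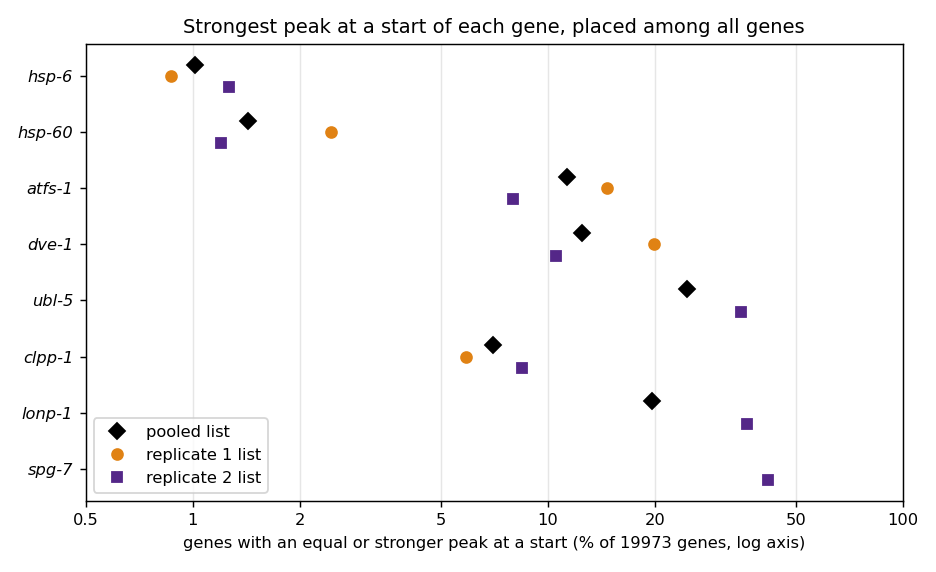
Share of the 19973 genes whose strongest peak at a start is equal to or stronger than the member's own (%, log axis), in the pooled, replicate 1 and replicate 2 lists. A missing point means that the list has no peak at a start of that gene, and lower values mean stronger peaks. The points of hsp-6 and hsp-60 lie between 0.871% and 2.45%, and those of the other 6 genes at 5.88% or above.

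**Figure D3:**
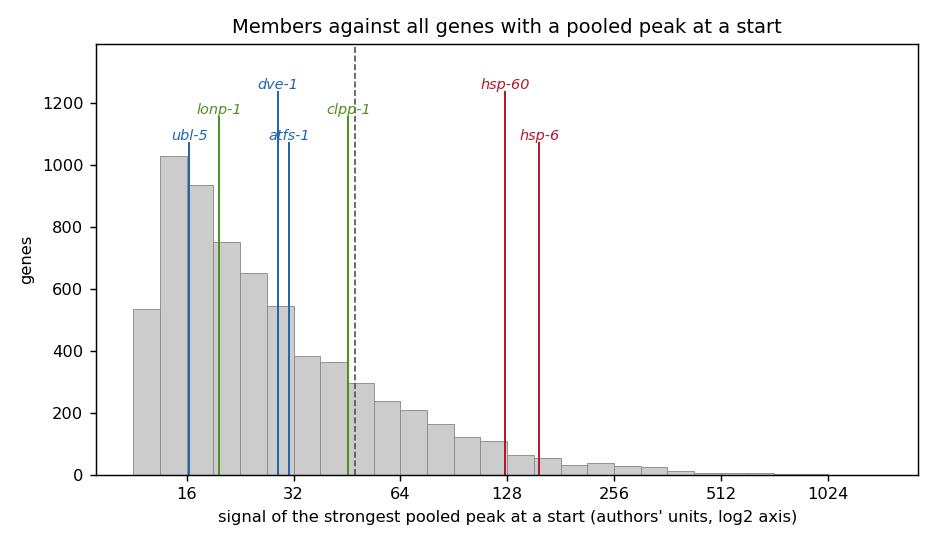
Signal of the strongest pooled peak at a start (log2 axis, authors' units) for the 6609 genes that have one, as a histogram, with the 7 members that have one as lines. Red lines are chaperones, blue lines regulators and green lines proteases, and the dashed line is the lowest optimal signal of 47.7. The lines of hsp-6 at 158 and hsp-60 at 126 lie to the right of the dashed line and the other 5 to its left, against a median of 22.9 over these genes.

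Few E-boxes were found near the 5' ends of the members, and with so few genes no difference from all genes is claimed or was tested. None of the 8 had CACGTG from 1000 bp upstream to 200 bp downstream of its 5' end, against 18.4% of all genes, and dve-1 alone had CATGTG there, against 32.9%. Both strands were searched, and an absence says only that the letters are not in these windows. Of the 22 pooled summits below the threshold, 2 had CACGTG or CATGTG within 50 bp, 9.09%, against 26.5% of all pooled peaks below the threshold. Over the whole windows CACGTG was present in 5 of 8 members, hsp-6, atfs-1, dve-1, clpp-1 and spg-7, against 68.6% of all genes. CATGTG was present in all 8, with 6 copies in dve-1 and 1 to 3 in the others, against 89.9% of all genes. The CACGTG closest to a pooled summit was that inside hsp-6, 102 bp away.

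Other genes of mitochondrial protein quality control and its signalling also carried optimal peaks. Over 5 lists of 73 genes, 14 had a peak at a start, 19.2%, against the 6.65% of all genes given above. These lists were chosen with earlier results of these data known, so no difference from all genes is claimed. The prohibitin genes phb-2 and phb-1, whose products form a ring complex in the inner membrane, were 2 of 12 in the quality control list, with signals of 75.3 and 57.2. The phb-1 peak was nearer to the start of Y37E3.8. The import list had 3 of 17, which were tomm-20, an outer membrane receptor gene, timm-23, an inner membrane channel gene, and immt-1, a gene of the MICOS complex of the inner membrane, with signals of 56.9, 54.7 and 51.0. Mitochondrial dynamics and mitophagy had 2 of 11, drp-1, a fission GTPase gene, at 77.9 and pdr-1, the Parkin homologue gene, at 67.5. The drp-1 peak was nearer to the start of fem-1. The pdr-1 peak ranked 701 in replicate 2 and 10706 of 11695 in replicate 1. Genes whose loss or knockdown is used to induce the response had 2 of 8, cox-5B at 82.2 and isp-1 at 65.8, which encode a cytochrome oxidase subunit and the Rieske iron-sulphur protein. The isp-1 peak was nearer to the start of islo-1.

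Regulators of the response had peaks at 5 of 25. The 4 strongest were at cbp-1, a histone acetyltransferase gene, with signal 293, at rheb-1, a small GTPase gene upstream of TORC1, with 134, at nhr-49, a nuclear receptor gene, with 77.4, and at sphk-1, a sphingosine kinase gene, with 57.5. The cbp-1 peak spanned III, 9765540 to 9765834, 853 bp upstream of the nearest start, and ranked 139 in replicate 1 and 59 in replicate 2. It was stronger than the hsp-6 and hsp-60 peaks in all lists. The rheb-1 peak ranked above that of hsp-60 in the optimal list and in replicate 1, at 432, and below it in replicate 2, at 314. Of the 14 genes, sphk-1 and the fifth regulator, dlk-1, had CACGTG within 50 bp of the summit and pdr-1 had CATGTG. The dlk-1 gene, a MAP kinase kinase kinase gene with signal 57.0, is named after its values were seen. Taken at equal list lengths, 13 of the 73 genes had a peak at a start in replicate 1 and 12 in replicate 2. The members had 3 in replicate 1, hsp-6, hsp-60 and clpp-1, against 6.96% of all genes, and 2 in replicate 2, hsp-6 and hsp-60, against 6.15%.

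**Figure D4:**
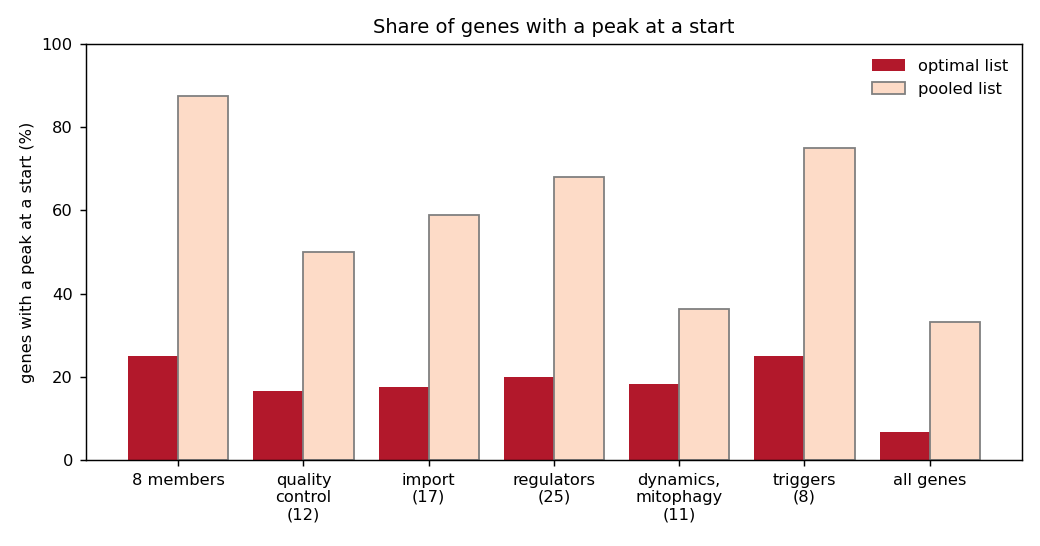
Share of genes with a peak at a start (%), for the 8 members, the 5 other lists (number of genes in brackets) and all 19973 genes, in the optimal list (red) and the pooled list (pale). The optimal shares are 25% for the members, between 16.7% and 25% for the lists and 6.65% for all genes, and the bars of small lists rest on 2 genes.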

How the data were processed

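Binding of GFP-tagged HLH-30 was measured by ChIP-seq in 2 replicates. The authors deposited narrowPeak lists, and the signal of each peak is their own value, made against a control. Per the description files of the samples, peaks were called on each replicate and on both together, and the optimal list came from these lists by irreproducible discovery rate (IDR). The replicate and pooled lists are labelled as peaks and background. Not given in the sources used here were the aligner, peak caller, IDR cut-off and read depth. Signal scales differ between lists. The ce10 lists were not used.

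From the ce11 lists, summits (start plus offset, counted from 1) were ranked by signal within a list and matched within 100 bp. Genes, starts and regions came from the Ensembl annotation (WBcel235), and bases and product names from RefSeq of the same assembly. All 8 members and 73 listed genes matched by symbol. Motifs were searched on both strands, and those that overlap count separately. Python 3.11.15, numpy 2.4.6 and pandas 2.3.3 were used, and window assignment was tested on simulated data. The members and gene lists were chosen with earlier results of these data known, so no test was made. Named genes are the members, the genes with starts nearest to their summits, where described, and up to 4 genes of each list with the strongest peaks. Other neighbours of members or of list peaks, and dlk-1, were named after their values were seen. Alternatives changed the window, the list, the replicate, the matching distance and the motif distance.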

Additional observations from a re-analysis of the deposited data

How the results depend on the processing

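Of 22 alternative counts, 18 stayed within 1.5 times the main value. Some of these could not have moved, so the tally is no measure of robustness. No E-box within 50 bp means none within 25 bp, and a match within 100 bp is also one within 200 bp. The count of members with an optimal peak at a start, 2 of 8, was 1 with the narrower window (500 bp before and 100 bp after a start), 7 in the pooled list and 0 with the nearest start only. It was 2 to 3 when either replicate was left out. The count over the whole window, also 2, was 8 in the pooled list and 2 to 3 with a replicate left out. The counts of 1, 7, 0 and 8 follow from how those alternatives are built, with a smaller window, a longer list or the nearest start only. Leaving a replicate out meant taking the 1959 strongest peaks of the other replicate's own list. The count of 3 adds clpp-1, whose peak ranked 1603 in replicate 1 and 3170 in replicate 2. Neither chaperone peak had an E-box within 25, 50 or 100 bp. Both were matched in each replicate within 50, 100 or 200 bp. The genes of the other lists with a peak were 14, and 10 to 20 under the other windows. No paired analysis was possible because there was a single group. Read depth is unknown, so a missing peak is not evidence that HLH-30 was absent.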

Other observations

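Genes of the vacuolar proton pump and of the respiratory chain lie upstream of 3 members. The tandem upstream neighbour of clpp-1, 207 bp away, is vha-9, and that of ubl-5, 499 bp away, is vha-10, which RefSeq names as putative V-type proton ATPase subunits. A pooled summit lay 194 bp from the start of vha-9, with signal 26.4 and rank 5301, in both replicates. The start of vha-10 had no pooled peak. Upstream of lonp-1, in the same direction, lie spcs-1, 97 bp away, then sdha-2 and ndua-13, for subunits of succinate dehydrogenase and NADH dehydrogenase. The pooled summit farthest upstream of lonp-1 lay between ndua-13 and kbp-5, 157 and 148 bp from their starts, with signal 18.1 and rank 10106.

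The inverted repeat of 14 bases over the hsp-6 summit was looked at after its sequence was seen. It occurs 4 times in the genome, and 3 pooled summits, of which 1 optimal, lie within 50 bp of a copy. The optimal one is that of hsp-6.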
